A study of Homo sapiens with 9 samples.

Results

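The general mRNA decay machinery was followed here as 46 genes chosen by name, of 58214 genes with a transcript in the files. They comprised 11 subunits of the CCR4-NOT deadenylase, 3 other deadenylase genes, 7 decapping genes, 7 genes of the LSM ring, both 5′-to-3′ exonucleases (XRN1 and XRN2), 9 core subunits of the RNA exosome, 4 genes of exosome nucleases and cofactors, the exosome-independent nuclease DIS3L2, and 2 ribosome rescue genes (HBS1L and PELO). All 46 were measured and passed the filter on low counts in every comparison.

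Gene expression was measured by poly(A) RNA-seq in K562, an immortalised human myelogenous leukaemia line with erythroid features. By the study's methods cells were transfected with siRNA, transfected again on day 3 and harvested 4 days after the first transfection. There were 3 libraries each of cells given a nontargeting siRNA pool (SCR), an siRNA pool against DHX34, and siRNAs I and II against UPF1. DHX34 is a helicase that takes part in nonsense-mediated mRNA decay (NMD), and UPF1 is the central helicase of NMD. All groups were therefore transfected cells of a single line, and depletion was partial. The study's methods call the replicates biological, but the labels do not name separate cultures, so p-values measure the spread between these libraries.

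General decay of an mRNA starts with shortening of its poly(A) tail by PAN2-PAN3 and CCR4-NOT. The body is then removed from either end: the LSM1-7 ring, PATL1 and DDX6 bring the decapping enzyme DCP2 and its activators to the transcript, after which XRN1 digests it from the 5′ end, while the exosome, or DIS3L2, digests it from the 3′ end. NMD is a surveillance pathway that recognises a stop codon upstream of an exon junction and passes such transcripts to these same enzymes.

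The 4 runs below, read from GRCh38, show how the transcripts of LSM7 and EXOSC8 compared below differ in splicing, chosen because the difference shifts the reading frame in each. LSM7, on the minus strand, has 2 acceptors for exon 3, at chr19:2324125-2324196 in LSM7-201 and at chr19:2324125-2324192 in LSM7-203, so LSM7-203 lacks 4 bases of the exon. The runs start with the last 20 bases of exon 2 (chr19:2328387-2328406). Capitals mark those 4 bases in LSM7-201 and the stop codon that follows in the shifted frame in LSM7-203, whose run ends 10 bases past it.
LSM7-201: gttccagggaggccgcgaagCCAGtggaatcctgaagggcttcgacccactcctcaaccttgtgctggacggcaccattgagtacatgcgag
LSM7-203: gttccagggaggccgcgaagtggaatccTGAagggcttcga
Both acceptors end in AG, capitals in the 30 bases around the junction (chr19:2324187-2324216), of which the first 20 are intron for LSM7-201.
LSM7 acceptors: cccccggtgatttctccaAGccAGtggaat
EXOSC8, on the plus strand, includes exon 2 (chr13:37002273-37002309, 37 bases, in capitals) in EXOSC8-202 and skips it in EXOSC8-201. Both runs start at the coding start in exon 1 (chr13:37000806-37000822) and go on through exon 3 (chr13:37002488-37002551), and the run of EXOSC8-201 reaches the stop codon of its shifted frame, in capitals, in the next exon (chr13:37002934-37002976).
EXOSC8-202: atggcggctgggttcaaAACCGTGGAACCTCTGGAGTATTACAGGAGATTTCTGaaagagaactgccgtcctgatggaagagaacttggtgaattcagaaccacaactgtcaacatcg
EXOSC8-201: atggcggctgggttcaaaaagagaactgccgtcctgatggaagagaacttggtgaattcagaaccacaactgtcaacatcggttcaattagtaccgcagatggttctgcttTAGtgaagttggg

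The depletions were visible in the libraries. Levels below are given as normalised CPM, expected counts scaled to a common library size with TMM factors, except where TPM, which divides by transcript length, is used to compare genes. DHX34 lay at 72.5 to 74.7 CPM in SCR and at 30 to 34.0 CPM after its own knockdown, and UPF1 lay at 252 to 267 CPM in SCR and at 104 to 107 CPM after its own. All 10 K562 markers were at 12.8 TPM or more in SCR, and their summed level was 23935 to 25512 TPM in SCR, 21583 to 23763 TPM in DHX34 and 14544 to 15744 TPM in UPF1 libraries. Of 15 markers of T cells, B cells, monocytes, fibroblasts and epithelia, 12 were under 1 TPM in each group and MS4A1, KRT5 and KRT14 were at 0, with sums of 18.0 to 19.6, 36.0 to 39.6 and 15.5 to 16.5 TPM in SCR, DHX34 and UPF1 libraries, most of it LYZ. The part of these shifts in the results was not tested.

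**Figure D1:**
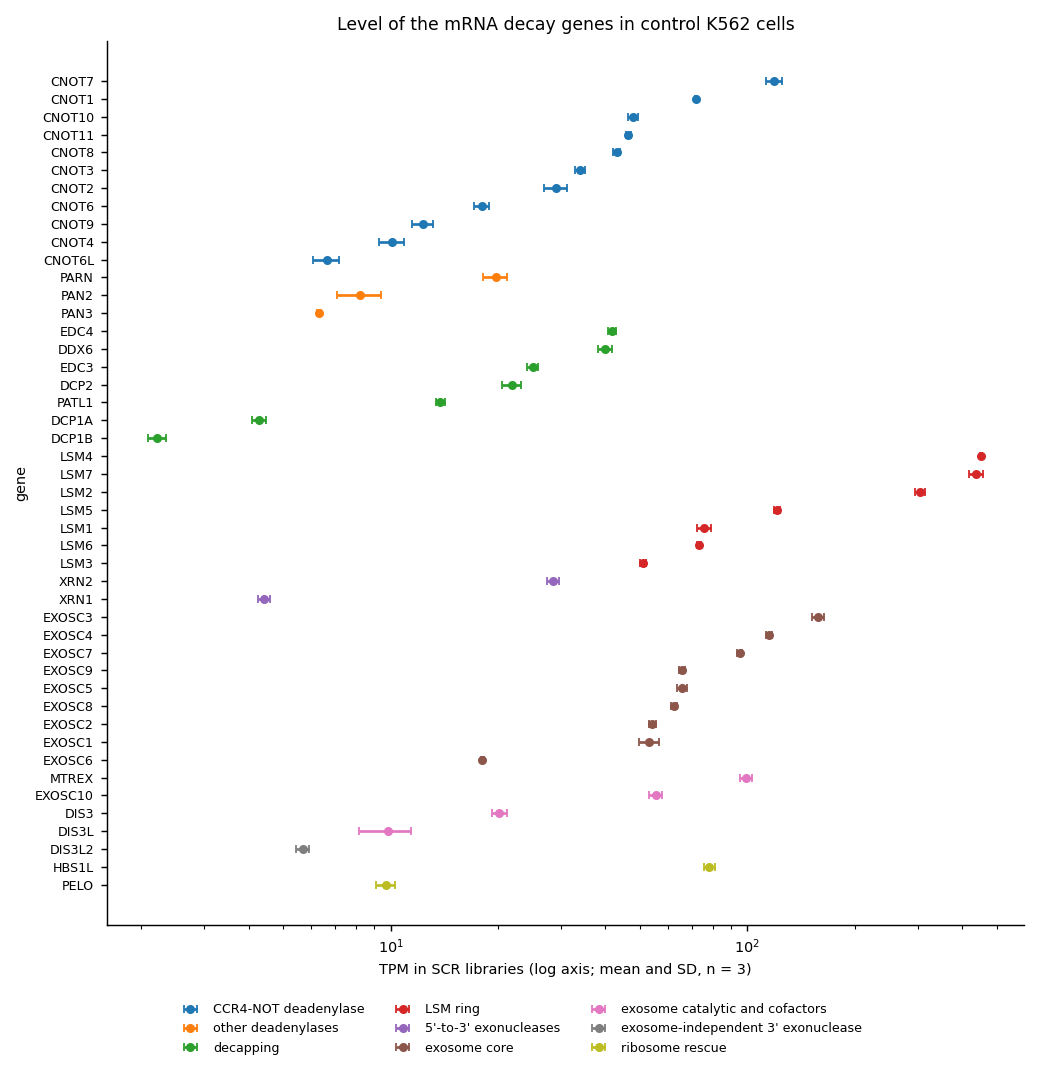
Level of each of the 46 genes in the SCR libraries, as TPM on a log axis, with points for the mean and bars for the SD of 3 libraries, coloured by complex. LSM4, LSM7 and LSM2 lie at the right and DCP1B at the left.

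In control cells the genes spanned a wide range, from 2.22 TPM ± 0.124 (SD, n = 3) for DCP1B to 451 TPM ± 3.2 for LSM4, with a median of 42.4 TPM. The LSM ring stood highest, with a median of 121 TPM, and LSM4, LSM7 (437 TPM ± 19.5), whose values lay close together, and LSM2 (305 TPM ± 9.36) headed the list. Among core exosome subunits the level ran from 18.1 TPM for EXOSC6 to 158 TPM for EXOSC3. Nucleases of the same complex differed in level. Of the CCR4-NOT nucleases, CNOT7 was at 119 TPM and its paralog CNOT8 at 43 TPM, against 18.0 TPM for CNOT6 and 6.62 TPM for CNOT6L. Of the exosome nucleases, EXOSC10 was at 55.4 TPM, DIS3 at 20.2 TPM and DIS3L at 9.81 TPM ± 1.64. XRN1, the cytoplasmic enzyme, was at 4.43 TPM ± 0.17 and XRN2, the nuclear enzyme, at 28.6 TPM ± 1.13. The decapping activator DCP1A (4.28 TPM ± 0.201) was likewise far below DCP2 (21.9 TPM ± 1.35). PAN3 (6.31 TPM ± 0.084) and PAN2 (8.23 TPM ± 1.17) were the lowest deadenylase genes with CNOT6L, and the neighbours PAN3 and CNOT6L, at 6.62 TPM ± 0.537, did not differ beyond their spread.

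After DHX34 depletion few of these genes were called, and in the main fit no log2 fold change exceeded 0.29 in either direction. CNOT1, DCP1A and XRN1 rose, and LSM5, LSM6, LSM7 and EXOSC3 fell. The 3 rises of 46 stand beside 5.54% of all genes tested that rose, and the 4 falls beside 4.86% that fell. The median log2 fold change was -0.07 over the 46 genes and 0.02 over all genes, and 31 of the 46 values were below 0. In simulated libraries a log2 change of 0.3 was called in 37.3% of changed genes for DHX34 and 68.7% for UPF1. Counts of calls therefore do not by themselves measure which depletion changed more genes. After UPF1 depletion more of the 46 were called. CNOT1, PARN, DCP1A, XRN1 and HBS1L rose, against 12.4% of all genes, and 14 genes fell, against 12.9%: CNOT9, CNOT10, LSM2, LSM3, LSM5, LSM6, LSM7, EXOSC3, EXOSC4, EXOSC5, EXOSC6, EXOSC9, MTREX and PELO. The median was -0.09 against 0.02 for all genes, and the values ran from -0.42 for CNOT9 to 0.46 for DCP1A. All 7 genes called after DHX34 depletion were called in the same direction after UPF1 depletion, but both comparisons use the same SCR libraries, so the overlap is given as a description.

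**Figure D2:**
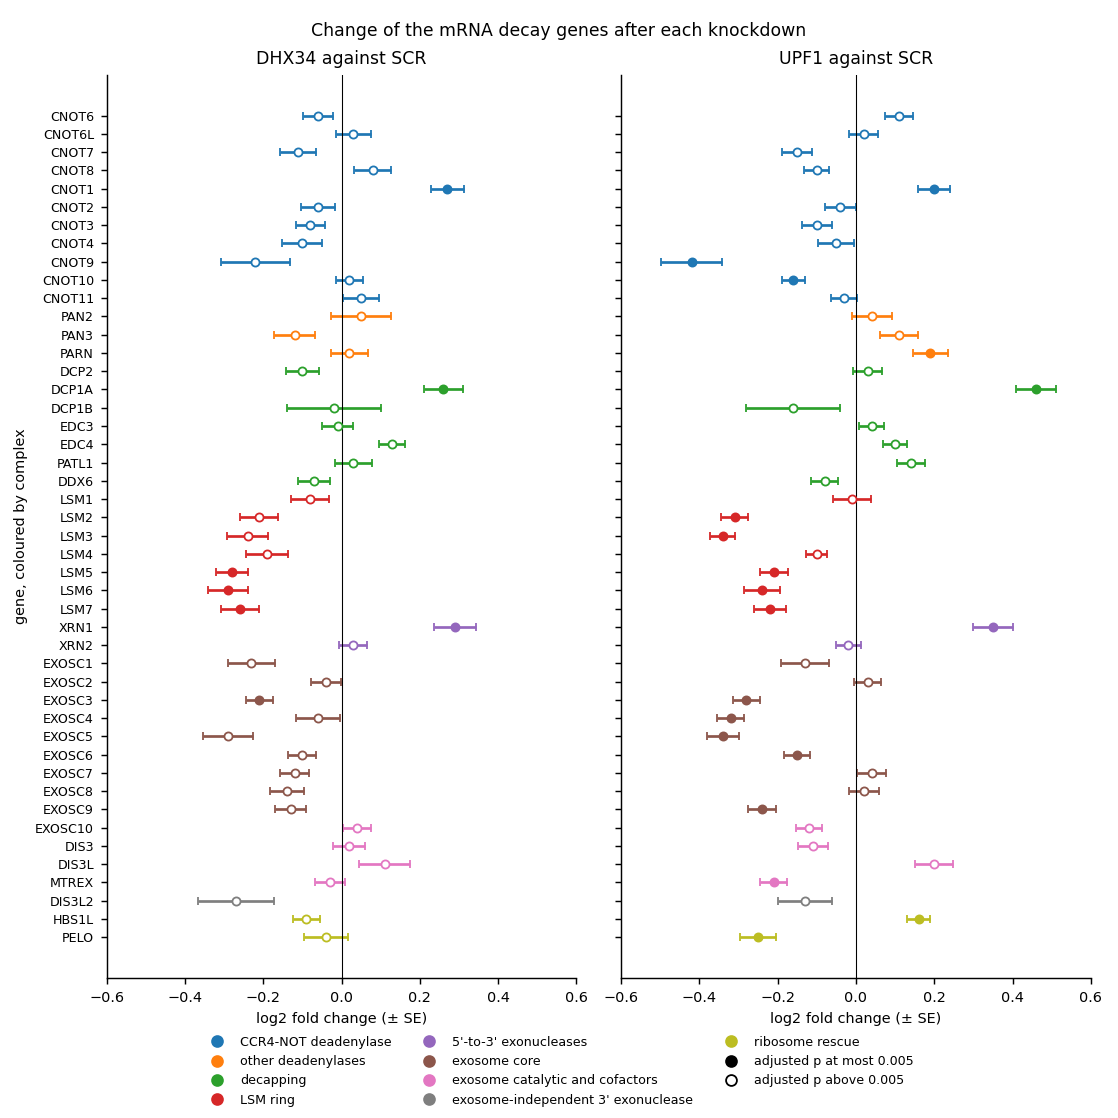
Log2 fold change of each gene with its SE, in DHX34 against SCR on the left and UPF1 against SCR on the right, coloured by complex, with filled points where the edgeR adjusted p was at most 0.005. LSM ring points lie to the left of 0 in both panels, and DCP1A and XRN1 lie to the right.

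Gene length moved with these values. Over all genes tested the median log2 fold change went from -0.09 to 0.15 (DHX34) and from -0.09 to 0.11 (UPF1) from the shortest to the longest of 10 equal groups of genes by length, with median effective lengths of 338 and 5659 bases for DHX34 and 334 and 5644 bases for UPF1. The members called higher after DHX34 depletion had effective lengths of 4184 to 6296 bases, and those called lower had lengths of 287 to 657 bases. With each library's length trend removed, none of the 7 DHX34 calls passed the test, and DCP2 (-0.23), LSM3 (-0.33) and EXOSC6 (-0.22) were called lower instead. For UPF1, DCP1A, XRN1 and HBS1L stayed higher and 11 of the 14 stayed lower, with LSM5, LSM6 and LSM7 no longer called and DDX6 (-0.17), EXOSC10 (-0.16) and DIS3 (-0.18) called lower in addition. On the TPM scale the median over all genes shifted by 0.13 (DHX34) and 0.17 (UPF1), and there 2 members were called higher and 0 lower for DHX34 and 12 higher and 0 lower for UPF1. With that shift taken out the calls on the TPM scale were 0 and 0 for DHX34 and 2 higher and 7 lower for UPF1. The shares of all genes given above belong to the main fits and not to these settings. The counts here therefore show how calls of the members depend on the setting, and not how the members stand among all genes.

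**Figure D3:**
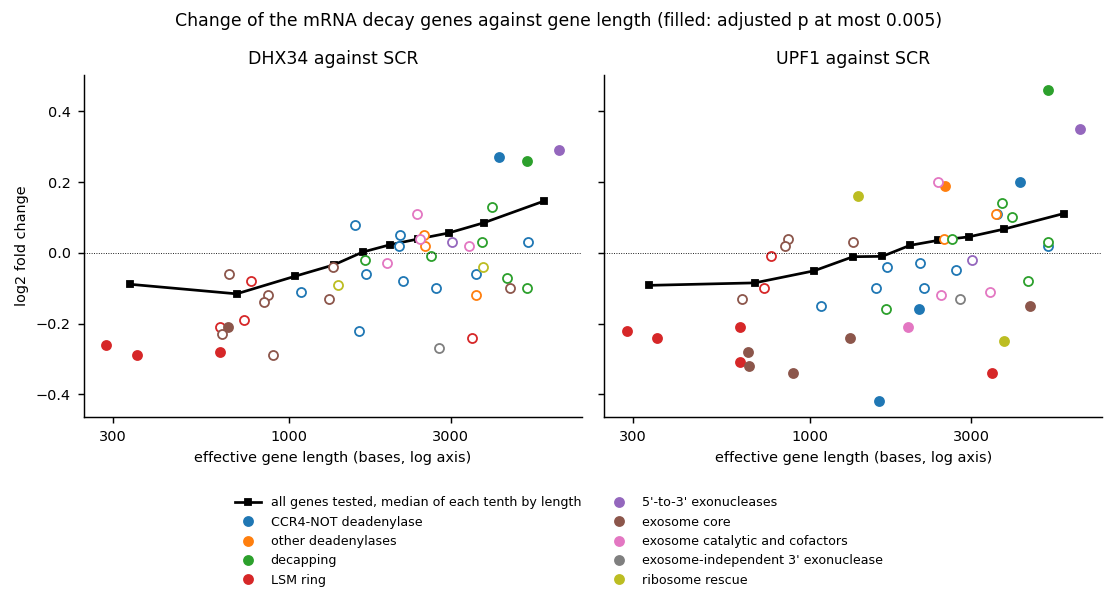
Log2 fold change of each gene against its effective length on a log axis, in DHX34 against SCR and UPF1 against SCR, with filled points for called genes and a black line for the median of all genes tested in each of 10 groups by length. The line lies below 0 for the shortest genes and above 0 for the longest in both panels.

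Of the 11 CCR4-NOT genes, 1 rose and 0 fell after DHX34 depletion, and 1 rose and 2 fell after UPF1 depletion. Over all genes tested, 5.54% rose and 4.86% fell for DHX34, and 12.4% rose and 12.9% fell for UPF1. CNOT1 is the scaffold on which the complex assembles. It was at 263, 285 and 289 CPM in SCR, 332, 327 and 348 CPM in DHX34 and 306, 328 and 334 CPM in UPF1 libraries. Both depleted groups lay above SCR, with log2 fold changes of 0.27 ± 0.042 (SE, edgeR adjusted p = 0.00115) and 0.20 ± 0.041 (adjusted p = 0.00162), which were 0.16 and 0.12 and not called with the length trend removed. On length-scaled counts, the gene's TPM times its mean effective length over libraries, they were 0.01 and 0.02. The DHX34 call was lost without SCR replicate 1 (0.23) or 2 (0.28) or DHX34 replicate 1 (0.27), and the UPF1 call without SCR replicate 1 (0.16) or UPF1 replicate 2 (0.19) or 3 (0.18). CNOT9, a subunit that binds CNOT1 and adaptor proteins, was at 23.4, 18.9 and 23.7 CPM in SCR, 20.6, 17.5 and 18.5 CPM in DHX34 and 17.1, 15.9 and 16.7 CPM in UPF1 libraries. UPF1 libraries lay below all SCR libraries, and DHX34 libraries overlapped SCR. The change was -0.42 ± 0.077 (adjusted p = 0.000942) for UPF1 and -0.22 ± 0.089 (adjusted p = 0.0946) for DHX34, and the UPF1 call was lost without SCR replicate 1 (-0.38) or UPF1 replicate 2 (-0.39).

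CNOT10, which with CNOT11 forms the N-terminal module, lay at 104 to 106 CPM in SCR and at 93.2 to 96.0 CPM in UPF1 libraries (-0.16 ± 0.03, adjusted p = 0.00112), a call lost without UPF1 replicate 2 (-0.16) or 3 (-0.15). In DHX34 libraries it lay at 106 to 108 CPM, so it was lower in UPF1 than in DHX34 libraries as well (-0.16 ± 0.03, adjusted p = 0.00243). CNOT11 did not move with it, at 96.4 to 101 CPM in UPF1 against 97.3 to 102 CPM in SCR libraries. Among the catalytic subunits, CNOT6 lay at 66.4 to 70.6 CPM in SCR, 65.1 to 66.3 CPM in DHX34 and 73.3 to 75.9 CPM in UPF1 libraries. It passed the test in UPF1 against DHX34 (0.19 ± 0.033, adjusted p = 0.00122) but in neither comparison with SCR. Its paralog CNOT6L lay at 37 to 39.3 CPM over all 9 libraries, with overlapping groups. CNOT7 and CNOT8 were not called in the main fit of any comparison, with log2 fold changes of -0.15 and -0.10 for UPF1 (adjusted p = 0.00915 and 0.0216). With the length trend removed, CNOT8 was called lower in UPF1 than in DHX34 libraries (-0.19, adjusted p = 0.00383).

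PARN, a poly(A)-specific nuclease that also trims noncoding RNAs, was at 48.7, 54.2 and 53.3 CPM in SCR, 53.0, 51.4 and 53.5 CPM in DHX34 and 58.5, 59.4 and 61.3 CPM in UPF1 libraries. UPF1 libraries lay above both other groups, by 0.19 ± 0.044 against SCR (adjusted p = 0.00408) and 0.19 ± 0.036 against DHX34 (adjusted p = 0.00192). The call against SCR was lost when any library was left out, with adjusted p from 0.00511 to 0.0221. PAN3, the adaptor subunit of PAN2-PAN3, lay at 21.1 to 23.0 CPM in DHX34 and 24.5 to 26.5 CPM in UPF1 libraries, a difference of 0.25 ± 0.054 (adjusted p = 0.00493), with SCR between them at 23.1 to 24.5 CPM. PAN2, the nuclease subunit, overlapped between all groups, at 21.0 to 26.3 CPM.

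Of the 7 decapping genes, DCP1A was called higher against SCR, where 5.54% of all genes rose for DHX34 and 12.4% for UPF1. It encodes an activator that binds DCP2, and it was at 22.0, 22.7 and 24.0 CPM in SCR, 26.7, 27.4 and 27.9 CPM in DHX34 and 30.1, 32.7 and 32.3 CPM in UPF1 libraries. The 3 groups were separate from each other, with the UPF1 libraries highest. The log2 fold change was 0.46 ± 0.05 for UPF1 (adjusted p = 1.6e-05), 0.26 ± 0.05 for DHX34 (adjusted p = 0.00376) and 0.22 ± 0.047 between them (adjusted p = 0.00389). The UPF1 rise passed under all 17 alternatives, from 0.35 to 0.68, while the DHX34 rise passed under 5 of 17, with a range of 0.13 to 0.41. It was lost when any single library was left out (0.23 to 0.29) and with the length trend removed (0.13, adjusted p = 0.0861). Its paralog DCP1B, at 3.35 to 4.53 CPM in all 9 libraries, overlapped between the groups, with a change of -0.16 ± 0.12 for UPF1 that leaves a wide margin. DCP2, the catalytic subunit, was at 114 to 125 CPM in SCR and 119 to 126 CPM in UPF1 libraries. The remaining 4, EDC3, EDC4, PATL1 and DDX6, had changes of -0.08 to 0.14 for UPF1 and -0.07 to 0.13 for DHX34.

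**Figure D4:**
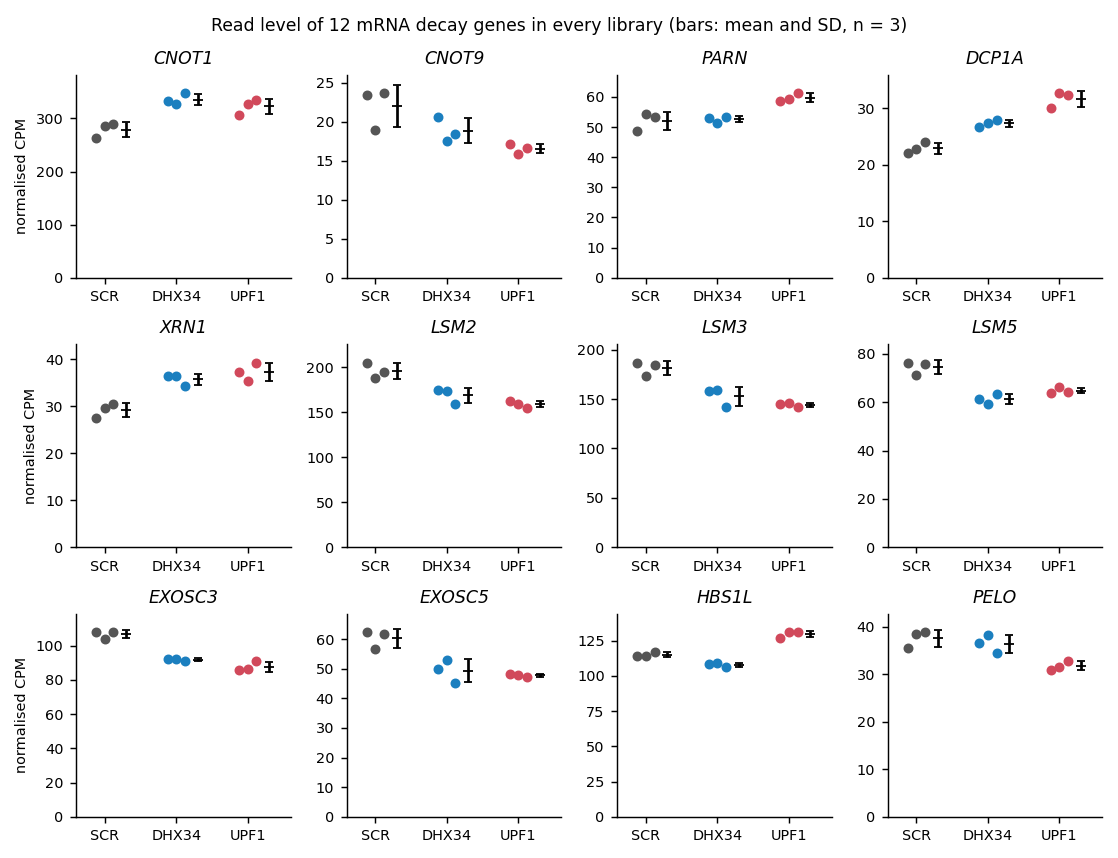
Normalised CPM of 12 of the genes in every library, by group, with the mean and SD of 3 libraries beside the points and the axis starting at 0. DCP1A climbs from SCR through DHX34 to UPF1, and LSM2, LSM3, EXOSC3 and EXOSC5 lie lower in both depleted groups than in SCR.

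All 7 genes of the LSM ring had negative log2 fold changes in both comparisons, with a median of -0.24 for DHX34 and -0.22 for UPF1. With the length trend removed the medians were -0.16 and -0.11, and LSM1 was above 0 in both (0.02 and 0.06). Of the 7, 3 fell after DHX34 depletion, where 4.86% of all genes fell, and 5 after UPF1 depletion, where 12.9% fell. LSM1 is the subunit particular to the cytoplasmic ring that acts in decapping, whereas LSM2 to LSM7 are shared with the nuclear ring that binds U6 snRNA. LSM1 was not called and lay at 56.0 to 62.8 CPM in SCR and 57.4 to 62.6 CPM in UPF1 libraries.

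LSM3 was at 187, 173 and 184 CPM in SCR, 158, 159 and 142 CPM in DHX34 and 145, 146 and 142 CPM in UPF1 libraries. Both depleted groups lay below SCR, by -0.34 ± 0.032 for UPF1 (adjusted p = 7.19e-06) and -0.24 ± 0.052 for DHX34 (adjusted p = 0.00572, not called). With an effective length of 3463 bases it was the long gene of the ring, and its changes with the length trend removed were -0.41 and -0.33, both called. LSM2 was at 205, 188 and 194 CPM in SCR, 174, 173 and 159 CPM in DHX34 and 162, 159 and 155 CPM in UPF1 libraries. Again both depleted groups lay below SCR, and the UPF1 change of -0.31 ± 0.035 (adjusted p = 2.23e-05) was called in all 6 fits with a library left out.

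LSM5 was at 76.4, 71.2 and 75.7 CPM in SCR, 61.5, 59.4 and 63.5 CPM in DHX34 and 63.9, 66.1 and 64.3 CPM in UPF1 libraries. LSM6 was at 25.6, 26.0 and 27.1 CPM in SCR, 22.3, 20.9 and 20.9 CPM in DHX34 and 23.1, 21.7 and 22.4 CPM in UPF1 libraries. LSM7 was at 137, 125 and 125 CPM in SCR, 107, 112 and 103 CPM in DHX34 and 115, 111 and 107 CPM in UPF1 libraries. For all 3 genes neither depleted group overlapped SCR, and DHX34 libraries had the lower means. None of the 3 was called in UPF1 against DHX34 (0.09, 0.08 and 0.06, edgeR adjusted p = 0.0983, 0.294 and 0.296). The log2 fold changes were -0.28 ± 0.041, -0.29 ± 0.052 and -0.26 ± 0.049 for DHX34 and -0.21 ± 0.036, -0.24 ± 0.046 and -0.22 ± 0.041 for UPF1. These 3 genes, of 623, 353 and 287 bases, lost their calls in both comparisons with the length trend removed, as CNOT1 did, at -0.17, -0.19 and -0.16 for DHX34 and -0.11, -0.12 and -0.10 for UPF1. With a library left out, the DHX34 calls held in 2, 1 and 2 of 6 fits and the UPF1 calls in 5, 2 and 4 of 6. LSM5 lost its UPF1 call without UPF1 replicate 1 (-0.20), LSM6 without SCR replicate 2 (-0.25) or 3 (-0.22) or UPF1 replicate 2 (-0.21) or 3 (-0.24), and LSM7 without UPF1 replicate 2 (-0.22) or 3 (-0.20). LSM4 was at 330 to 342 CPM in SCR, 270 to 310 CPM in DHX34 and 310 to 320 CPM in UPF1 libraries and was not called.

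XRN1, which degrades decapped mRNA, was at 27.5, 29.7 and 30.4 CPM in SCR, 36.4, 36.4 and 34.4 CPM in DHX34 and 37.3, 35.4 and 39.3 CPM in UPF1 libraries. Every depleted library lay above every SCR library. The change was 0.35 ± 0.052 for UPF1 (adjusted p = 0.000205) and 0.29 ± 0.053 for DHX34 (adjusted p = 0.0024). It was the longest of the 46 genes, and with the length trend removed the UPF1 rise was 0.22 and called and the DHX34 rise was 0.14 and not called. The DHX34 call held in 1 of 6 fits with a library left out, the one without DHX34 replicate 3 (0.33), and had adjusted p from 0.006 to 0.0141 in the others. The nuclear enzyme XRN2 was at 87.3, 90.5 and 90.0 CPM in SCR, 91.8, 91.2 and 89.8 CPM in DHX34 and 86.5, 88.4 and 89.4 CPM in UPF1 libraries. Its groups overlapped SCR in both comparisons, with changes of 0.03 ± 0.036 and -0.02 ± 0.032.

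Of the 9 core exosome genes, EXOSC3 fell after DHX34 depletion and 5 fell after UPF1 depletion, with none called higher. Over all genes tested, 4.86% fell for DHX34 and 12.9% for UPF1. EXOSC3, a cap subunit that binds RNA, was at 108, 104 and 108 CPM in SCR, 92.0, 92.5 and 91.1 CPM in DHX34 and 85.6, 86.5 and 91.2 CPM in UPF1 libraries. Both depleted groups lay below SCR, by -0.21 ± 0.035 for DHX34 (adjusted p = 0.00147) and -0.28 ± 0.034 for UPF1 (adjusted p = 4.1e-05). The DHX34 call was lost without SCR replicate 1 (-0.21) or 3 (-0.20) or DHX34 replicate 1 or 2 (-0.22 each), and with the length trend removed (-0.11, adjusted p = 0.0311). EXOSC5, EXOSC4, EXOSC6 and EXOSC9 belong to the ring of the core. EXOSC5 was at 62.4, 56.6 and 61.8 CPM in SCR, 50, 52.9 and 45.1 CPM in DHX34 and 48.3, 47.9 and 47.1 CPM in UPF1 libraries. Its change was -0.34 ± 0.041 for UPF1 (adjusted p = 4.14e-05) and -0.29 ± 0.063 for DHX34 (adjusted p = 0.00697), with no overlap with SCR in either.

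EXOSC4 was at 77.9, 77.9 and 78.6 CPM in SCR, 77.5, 78.8 and 67.9 CPM in DHX34 and 63.0, 65.0 and 60.5 CPM in UPF1 libraries. It was lower in UPF1 libraries by -0.32 ± 0.035 (adjusted p = 1.88e-05), while DHX34 libraries overlapped SCR. EXOSC9 was at 92.4, 85.8 and 87.9 CPM in SCR, 80.3, 80.9 and 81.0 CPM in DHX34 and 74.9, 75.1 and 75.5 CPM in UPF1 libraries. The UPF1 fall of -0.24 ± 0.035 passed (adjusted p = 0.000146) and the DHX34 value of -0.13 ± 0.039 did not (adjusted p = 0.0258). EXOSC6 fell by 0.15 ± 0.033 on the log2 scale for UPF1 (adjusted p = 0.00344), a call that was lost when any library was left out, with adjusted p from 0.00671 to 0.0267. The other 4, EXOSC1, EXOSC2, EXOSC7 and EXOSC8, had changes of -0.13 to 0.04 for UPF1.

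MTREX, the nuclear helicase that feeds RNA into the exosome, was at 209, 209 and 222 CPM in SCR, 211, 211 and 204 CPM in DHX34 and 178, 190 and 187 CPM in UPF1 libraries. The UPF1 group lay below both others, by -0.21 ± 0.034 against SCR (adjusted p = 0.000338) and -0.16 ± 0.035 against DHX34 (adjusted p = 0.00436). The nucleases themselves were not called. EXOSC10 was at 137 to 143 CPM in SCR and 126 to 133 CPM in UPF1 libraries (-0.12, adjusted p = 0.013), DIS3 at 68.8 to 73.2 CPM and 64.7 to 68.7 CPM (-0.11, adjusted p = 0.0402), and DIS3L at 23.5 to 25.9 CPM and 28.0 to 28.4 CPM (0.20, adjusted p = 0.00614). DIS3L2, which degrades uridylated RNA, lay at 15.9 to 17.4 CPM in SCR, 11.3 to 15.2 CPM in DHX34 and 13.6 to 15.9 CPM in UPF1 libraries (-0.27 ± 0.097 for DHX34, adjusted p = 0.0605).

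HBS1L and PELO, partners that split stalled ribosomes, moved in opposite directions after UPF1 depletion. HBS1L was at 114, 114 and 117 CPM in SCR, 108, 109 and 106 CPM in DHX34 and 127, 131 and 131 CPM in UPF1 libraries. All 3 groups were separate, and UPF1 libraries were higher than SCR by 0.16 ± 0.029 (adjusted p = 0.000748) and higher than DHX34 by 0.28 ± 0.031 (adjusted p = 5.58e-05). The call against SCR was lost without UPF1 replicate 2 (0.16, adjusted p = 0.00628). PELO was at 35.5, 38.4 and 38.9 CPM in SCR, 36.7, 38.2 and 34.4 CPM in DHX34 and 31.0, 31.6 and 32.8 CPM in UPF1 libraries. UPF1 libraries lay below both other groups, and the change against SCR was -0.25 ± 0.046 (adjusted p = 0.00103), lost without SCR replicate 2 (-0.24), UPF1 replicate 1 (-0.23) or UPF1 replicate 2 (-0.24). PELO shares 11.4% of its exon bases with ITGA1 on the same strand, which was at 0.0744 TPM in SCR.

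The depletions were also set against each other. In UPF1 against DHX34, 5 of the 46 genes were higher, where 9.89% of all genes were, and 2 were lower, where 7.47% were. The 5 were CNOT6, PAN3, PARN, DCP1A and HBS1L, and the 2 were CNOT10 and MTREX. The median over the 46 genes was 0.01, as for all genes. HBS1L was called in all 6 fits with a library left out, DCP1A in those without DHX34 replicate 3 (0.23) or UPF1 replicate 1 (0.26), and the other 5 only in that without DHX34 replicate 3. With the length trend removed, CNOT8 (-0.19), EXOSC4 (-0.27) and EXOSC10 (-0.15) were called lower in addition.

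A further 73 genes act around this machinery as adaptors, tail-binding proteins, decapping partners, exosome adaptors and NMD factors, and 72 of them were tested. After DHX34 depletion 3 rose and 5 fell, and after UPF1 depletion 14 rose and 11 fell, with medians of 0.03 and 0.01, beside 5.54% and 4.86% of all genes for DHX34 and 12.4% and 12.9% for UPF1. BTG1, which recruits CCR4-NOT through CNOT7 and CNOT8, fell by 0.55 ± 0.052 on the log2 scale after DHX34 depletion (adjusted p = 5.08e-05), from 47.9 to 49.0 CPM in SCR to 30.9 to 34.7 CPM, and was at 44.6 to 45.6 CPM in UPF1 libraries (-0.10, not called). Among the 9 NMD factors other than DHX34 and UPF1, 8 rose after UPF1 depletion and 0 after DHX34 depletion, with medians of 0.42 and 0.06. SMG1, the kinase of UPF1, rose by 0.62 ± 0.047, SMG5 by 0.51 ± 0.032 and UPF2 by 0.51 ± 0.043. The 14 genes listed as decapping partners had 0 rises and 5 falls for UPF1, where 12.4% of all genes rose and 12.9% fell. That heading is broad, and LSM8 and DCPS were among the falls. With the length trend removed LSM8 was no longer called (-0.12, edgeR adjusted p = 0.0109).

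The 46 genes had 473 transcripts in the files, and transcripts of 36 genes passed the filters for isoform shares in each comparison with SCR. A share is a transcript's percentage of the TPM of its gene, so short transcripts with few reads can hold large shares, and salmon divides reads between transcripts with common exons by estimation. After DHX34 depletion 4 of 116 transcripts were called, 3.45% against 0.95% of all transcripts tested. After UPF1 depletion 10 of 114 were called, 8.77% against 4.07%, and between the depletions 5 of 119, 4.2% against 2.23%.

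**Figure D5:**
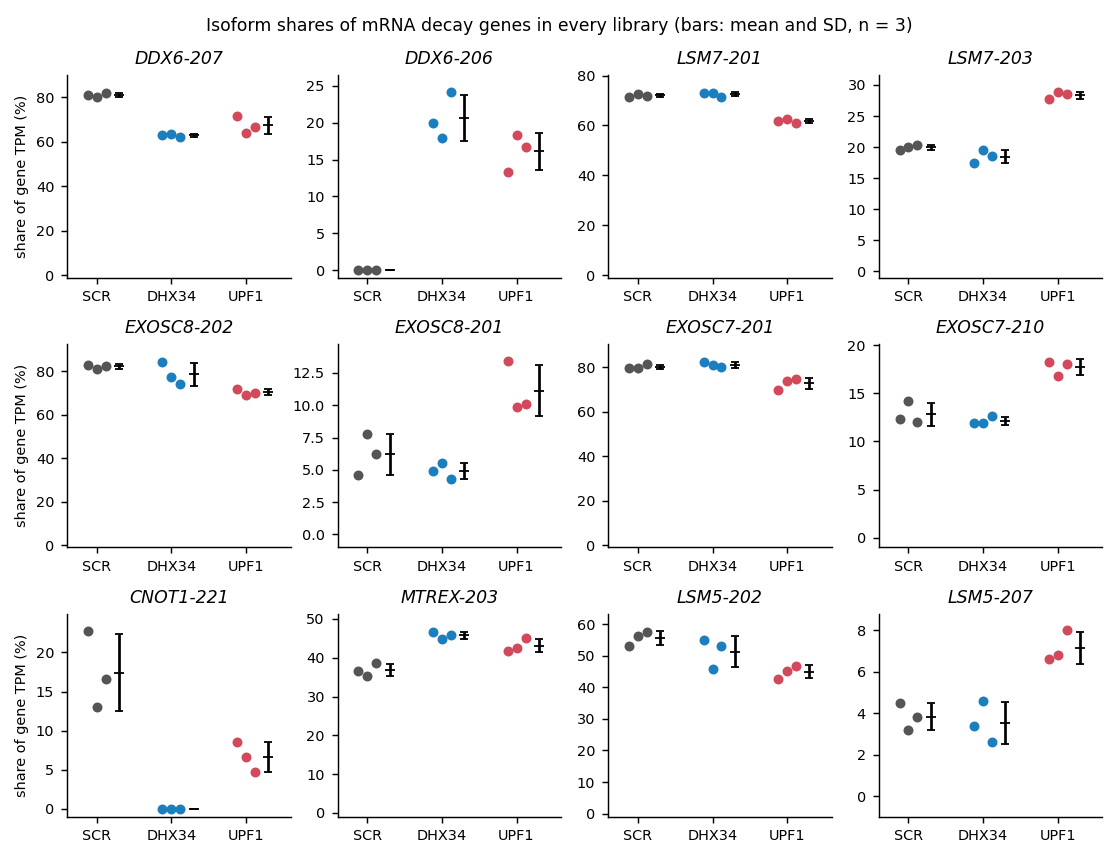
Share of the gene's TPM held by 12 named transcripts in every library, in percent, by group, with the mean and SD of 3 libraries beside the points. LSM7-203, EXOSC7-210 and EXOSC8-201 are higher in UPF1 than in the other groups, and DDX6-206 is at 0 in all SCR libraries.

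LSM7 changed isoform in UPF1-depleted cells. LSM7-201, the main coding transcript, held 71.6%, 72.8% and 72.0% in SCR, 72.9%, 73.1% and 71.6% in DHX34 and 61.8%, 62.4% and 61.0% in UPF1 libraries. LSM7-203, with the acceptor 4 bases further on printed above, held 19.6%, 20% and 20.3% in SCR, 17.4%, 19.5% and 18.5% in DHX34 and 27.7%, 28.8% and 28.5% in UPF1 libraries. The UPF1 libraries were separate from both other groups for each transcript. The shifts against SCR were -10.4 points (limma adjusted p = 0.000876) and 8.4 points (adjusted p = 0.00101), those against DHX34 were -10.8 points (adjusted p = 0.00141) and 9.9 points (adjusted p = 0.00204), and all 4 were called whichever library was left out. With diffSpliceDGE on the counts LSM7-203 was called (adjusted p = 1.5e-06 against SCR) and LSM7-201 was not (0.0686). LSM7-203 is annotated as protein coding with 105 coding bases, against 309 in LSM7-201, and its stop lies 57 bases before the last exon junction. In TPM, LSM7-203 was at 87.3 ± 2.4 (SD, n = 3) in SCR and 122 ± 2 in UPF1 libraries, and LSM7-201 at 316 ± 13 and 266 ± 9.1.

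EXOSC8 also lost share from its full coding transcript. EXOSC8-202, that transcript, held 83.2%, 81.1% and 82.7% in SCR, 84.2%, 77.6% and 74.0% in DHX34 and 71.9%, 69.3% and 70.3% in UPF1 libraries. The UPF1 libraries lay below all SCR libraries, by -11.9 points (adjusted p = 0.00524), a shift that diffSpliceDGE did not call (0.592). EXOSC8-201, which lacks the 37 bases of exon 2 and is annotated as an NMD target, held 4.6%, 7.8% and 6.2% in SCR, 4.9%, 5.5% and 4.3% in DHX34 and 13.4%, 9.9% and 10.1% in UPF1 libraries. UPF1 libraries were above both other groups, with 6.2 points and an adjusted p of 0.03 against DHX34 and 4.9 points and 0.0906 against SCR. The call against DHX34 was lost whichever library was left out (adjusted p from 0.0684 to 0.0941). Its stop lies in exon 3 of its own 9 exons, which is the exon after exon 3 of EXOSC8-202, 452 bases before the last junction. Retained-intron transcripts of EXOSC8 together held 5.78% ± 0.7 (SD, n = 3) in SCR, 9.77% ± 2.3 in DHX34 and 10.2% ± 1.7 in UPF1 libraries, so EXOSC8-201 was not the only transcript with a higher share where EXOSC8-202 was lower. The gene sum of EXOSC8 was not called, at 54.3 to 58.3 CPM in UPF1 and 54.6 to 56.2 CPM in SCR libraries.

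EXOSC7 lost share from its main coding transcript in UPF1 libraries. EXOSC7-201 held 79.7%, 79.8% and 81.4% in SCR, 82.3%, 81.0% and 80.0% in DHX34 and 69.8%, 74.0% and 74.6% in UPF1 libraries. The UPF1 shift was -7.5 points (adjusted p = 0.0389). EXOSC7-210, which has a further exon junction 54 bases after the stop codon used by EXOSC7-201 and no annotated coding sequence, held 12.3%, 14.2% and 12% in SCR, 11.9%, 11.9% and 12.6% in DHX34 and 18.3%, 16.8% and 18.1% in UPF1 libraries. It was higher in every UPF1 library than in any other, by 4.9 points against SCR (adjusted p = 0.0415) and 5.6 points against DHX34 (adjusted p = 0.0198), and it is named although its shift against SCR is just under the limit of 5 points set for naming. The call of EXOSC7-201 was lost whichever library was left out (adjusted p from 0.071 to 0.11), and that of EXOSC7-210 in 5 of 6 such fits (adjusted p from 0.095 to 0.137), all but that without SCR replicate 2. Against DHX34, EXOSC7-201 differed by -8.3 points (adjusted p = 0.0397), a call lost whichever library was left out (adjusted p from 0.076 to 0.123), and the call of EXOSC7-210 held only without DHX34 replicate 3 (0.0457).

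Coding transcripts of LSM5 and DDX6 also changed in share. LSM5-202 held 53.1%, 56.3% and 57.6% in SCR, 55.0%, 45.8% and 53.2% in DHX34 and 42.7%, 45.3% and 46.7% in UPF1 libraries, a UPF1 shift of -10.7 points (adjusted p = 0.0191) that was called in 1 of the 6 fits with a library left out. LSM5-207, which also has 186 coding bases and starts from another first exon, held 3.2% to 4.5% in SCR and 6.6% to 8.0% in UPF1 libraries (3.3 points, adjusted p = 0.0362), a shift under the 5 points set for naming that was called in none of the 5 such fits in which it was tested. DDX6-207, the main transcript of the helicase gene DDX6, held 80.8%, 80.1% and 82.0% in SCR, 63.2%, 63.5% and 62.1% in DHX34 and 71.6%, 64.0% and 66.6% in UPF1 libraries. DDX6-206 was listed at 0 in all SCR libraries and held 19.9%, 17.9% and 24.1% in DHX34 and 13.3%, 18.3% and 16.7% in UPF1 libraries. Both depleted groups were thus separate from SCR for both transcripts, with shifts of -18.0 points (adjusted p = 0.00436) and 20.6 points (adjusted p = 0.00132) for DHX34 and -13.6 points (adjusted p = 0.0187) and 16.1 points (adjusted p = 0.000481) for UPF1. The UPF1 call of DDX6-207 was lost without SCR replicate 1 or 3 or UPF1 replicate 2 or 3 (adjusted p from 0.0609 to 0.0799). Both transcripts have 1449 coding bases in GENCODE 44 and differ in the first exon, which lies at chr11:118791098-118791164 in DDX6-206 and at chr11:118790855-118790948 in DDX6-207. The files give DDX6-206 a length of 4538 bases and GENCODE 44 a length of 6128, so the transcript that was quantified differs from the current model, and an estimate of exactly 0 in 3 libraries may rest on how reads common to both transcripts were assigned, which was not tested.

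Short fragments made up the remaining calls. CNOT1-221, a retained-intron transcript of 493 bases near the 3′ end of CNOT1, held 22.7%, 13% and 16.6% in SCR, was listed at 0 in all DHX34 libraries and held 8.6%, 6.6% and 4.7% in UPF1 libraries. The shifts were -17.4 points (adjusted p = 0.0036) and -10.8 points (adjusted p = 0.0485), and the UPF1 call was lost in 5 of 6 fits with a library left out (adjusted p from 0.0841 to 0.149). In SCR it held 1.12% of the gene's expected counts, 233 ± 66.3 reads (SD, n = 3), so the TPM share rests on few reads over a short length. MTREX-203, a transcript of 571 bases and 6 exons at the start of the gene with no annotated coding sequence, held 36.6%, 35.4% and 38.6% in SCR, 46.7%, 44.7% and 45.8% in DHX34 and 41.8%, 42.5% and 45% in UPF1 libraries. The DHX34 shift of 8.9 points (adjusted p = 0.0379) was lost when any library was left out (adjusted p from 0.055 to 0.131), and this transcript held 5.35% of the counts of MTREX in SCR.

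Of the 46 genes, 29 had a transcript annotated as an NMD target. The summed share of such transcripts was tested in 14 genes for DHX34, where limma called 0 of them, against 0.902% of all genes, and gave 1 gene an unadjusted p under 0.05. It was above SCR in 8 of the 14. In UPF1 libraries it was above SCR in 13 of 17 genes, with a median difference of 0.98 points. No such direction count or median is given for all genes, so these values are not read as particular to the members. For UPF1, 1 gene was called higher, against 19.2% of all genes, and 1 lower, against 1.07%. The gene called higher was EXOSC8, by 4.94 points (adjusted p = 0.0269), through EXOSC8-201 above, and the call was lost when SCR replicate 1 or 3 or any UPF1 library was left out (adjusted p from 0.0553 to 0.0909). The gene called lower was MTREX, whose NMD transcript MTREX-207 has 25 exons against 27 in MTREX-201, with a stop in exon 3. Its share was 30.7%, 29.4% and 29.2% in SCR, 26.1%, 23.2% and 25.4% in DHX34 and 27.0%, 24.4% and 24.3% in UPF1 libraries, below SCR in every depleted library, by -4.5 points for UPF1 (adjusted p = 0.034) and with an adjusted p of 0.199 for DHX34. The UPF1 call of MTREX was lost when any SCR library or UPF1 replicate 2 or 3 was left out (adjusted p from 0.0667 to 0.114). The mean coding share of MTREX was lower too, at 32.4% in SCR, 28.4% in DHX34 and 30.5% in UPF1 libraries. The share of the short MTREX-203, given above, was higher in both depleted groups. Shares within a gene depend on each other, so the lower NMD share does not by itself show a loss of MTREX-207.

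Between the depletions 2 of 15 genes were called higher in UPF1 libraries, against 17.5% of all genes, and none lower, against 0.696%. EXOSC8 differed by 6.2 points (adjusted p = 0.00498), and PARN by 3.8 points (adjusted p = 0.0136), at 0.76%, 0.82% and 1.3% in DHX34 and 3.88%, 6.48% and 4.02% in UPF1 libraries. For PARN the SCR libraries were at 3.68%, 0.79% and 1.77%, below the lowest UPF1 value, but UPF1 against SCR was not called (2.71 points, limma adjusted p = 0.128). Some members held a large NMD-annotated share in control cells already: LSM6 had 90.5% ± 1.8 (SD, n = 3) and DIS3 42.5% ± 2.6, and these were 89.4% ± 1.2 and 37.4% ± 2.2 in UPF1 libraries, with no call (adjusted p = 0.558 and 0.209). In LSM6, PAN2 and MTREX transcripts annotated as coding held under 50% of the TPM in SCR. These are shares of TPM, not of reads. In LSM6 the coding transcript LSM6-201 has 2259 bases, against an effective length of 353 bases for the gene. Its share of the reads can thus be well above its share of the TPM.

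In bulk RNA a lower level in every cell and a lower share of cells with the transcript cannot be told apart. Same-strand genes that overlap exons of CNOT10, EDC4, EXOSC3, EXOSC4, EXOSC7, DIS3L2 or PELO were at 0.227 TPM or less in SCR, and pseudogenes named after 9 of the members held at most 0.0122% of the TPM of their parent.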

How the data were processed

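Poly(A)-selected RNA of 9 K562 libraries was used. The authors quantified the reads with salmon, with a correction for GC content, against Ensembl transcripts of GRCh38, as the study's methods state. The deposited table of each library holds, for each of 203027 transcripts, the expected count, the reads salmon assigned to it, and the TPM, its relative abundance after division by effective length, both as estimated by the authors. The authors' tables of sleuth and SUPPA2 comparisons (effects, p-values, dPSI) were not used.

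Transcripts were joined by identifier to GENCODE 44 on GRCh38, which matched 97.9% of them; 85.8% of those matched were equally long in the files and in GENCODE. Deposited expected counts were summed per gene, rounded and fitted with edgeR 4.0.16 in R 4.3.3 (quasi-likelihood test, TMM factors, low counts removed by filterByExpr at 10 counts) for each pair of groups alone, 6 libraries a fit. A gene was called where its Benjamini-Hochberg p, adjusted over all genes tested, did not exceed 0.005. Log2 fold changes carry their standard error (SE). Isoform shares, a transcript's percentage of the TPM of its gene, were fitted on an arcsine square-root scale with limma 3.58.1 for transcripts of at least 5% in genes of at least 1 TPM with 2 or more such transcripts, and called at an adjusted p of at most 0.05. The share of transcripts annotated as nonsense-mediated decay was fitted likewise in genes where it was at least 1%. The variance trend of the share fits was set on gene TPM, a choice made after seeing the data, and limma's default trend is an alternative. DESeq2 1.42.0, RLE factors, no filter, log2(TPM + 0.5), length-scaled counts, removal of each library's trend with gene length, other thresholds, a replicate block, diffSpliceDGE and leaving out each library were alternatives. The scripts were tested on simulated data.

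Library totals ran from 73478797 to 103625443 expected counts. No pairing by replicate number was seen, as correlations of same-numbered deviations ran from -0.1 to 0.08. These correlations do not tell whether libraries of the same number were prepared together. Every called member is named, and values in every library are given for the 8 with the greatest rise and fall per comparison with SCR. Their paralogs are given by library or, for DCP1B, as a range. Other decay genes are named from a called log2 change of 0.5 in size, apart from LSM8 and DCPS. Isoforms are named from a called shift of 5 points. The 46 members and the other lists were chosen with earlier results of these data known. The labels spell the line K652 in some fields, and give the treatment of the SCR libraries as WT although all libraries have the same transfection protocol.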

Additional observations from a re-analysis of the deposited data

Results flagged for a closer look

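The following results differed between the depletions themselves, in the test of UPF1 against DHX34 libraries. At the gene level (log2 fold change, edgeR) HBS1L was higher in UPF1 libraries by 0.28 (adjusted p = 5.58e-05), PAN3 by 0.25 (0.00493), DCP1A by 0.22 (0.00389), CNOT6 by 0.19 (0.00122) and PARN by 0.19 (0.00192), while CNOT10 and MTREX had differences of -0.16 each (0.00243 and 0.00436). Among isoform shares (percentage points, limma) LSM7-203 differed by 9.9 (adjusted p = 0.00204), LSM7-201 by -10.8 (0.00141), EXOSC7-210 by 5.6 (0.0198), EXOSC7-201 by -8.3 (0.0397) and EXOSC8-201 by 6.2 (0.03). The share of NMD-annotated transcripts differed by 6.2 points in EXOSC8 (0.00498) and by 3.8 points in PARN (0.0136). Among these, HBS1L, both LSM7 transcripts and both NMD shares kept their calls in all 6 fits with a library left out.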

How the results depend on the processing

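Shares of all genes called are given above for the main fits only, so the counts here show how calls of the members move. In DHX34 against SCR, 3 members were called higher and 4 lower. At an adjusted p of 0.05 the lower count was 12, with DESeq2 9, without a filter 10 and with all 9 libraries in 1 fit 7. On log2 TPM it was 0, on centred log2 TPM 0 higher and 0 lower were called, on length-scaled counts 0 and 1, and with the length trend removed 0 were higher. With a replicate block the counts were 0 and 1, and with block and length removal 0 and 0. Leaving out a library gave 0 to 2 higher and 0 to 4 lower. In UPF1 against SCR (5 and 14), 9 were higher at 0.05, log2 TPM gave 12 and 0, centred 2 and 7, length-scaled 2 and 8, length removal 3 higher, and leaving out a library 2 to 5 and 8 to 12. On log2 TPM MTREX (0.12), CNOT10 (0.11) and EXOSC6 (0.05) turned positive, where the median of all genes was 0.17. In UPF1 against DHX34 (5 and 2), the counts were 8 and 8 at 0.05, 5 lower with DESeq2, 3 higher with RLE factors, 8 and 6 without a filter, 2 and 0 on log2 TPM, 1 and 0 centred, 2 and 0 length-scaled, 5 lower with length removal and with all 9 libraries, 1 and 1 with a replicate block and also with length removal, and 1 to 5 and 0 to 7 with a library left out.

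Isoform calls higher and lower for DHX34 (2 and 2) were 1 higher at an adjusted p of 0.01, and 1 and 1 on log2 ratios, with a replicate block and with the default variance trend, with 1 to 2 and 2 to 2 when a library was left out. For UPF1 (4 and 6) they were 2 and 2 at 0.01, 1 lower on log2 ratios, 2 and 3 with a replicate block, 1 and 2 with the default trend, 3 lower with diffSpliceDGE, and 2 to 4 and 2 to 4 with a library left out. For UPF1 against DHX34 (3 and 2) they were 1 and 1 at 0.01, 1 lower on log2 ratios, 1 and 1 with a replicate block, 0 and 0 with the default trend, 6 and 1 with diffSpliceDGE, and 1 to 2 and 1 to 1 with a library left out. The NMD shares for UPF1 (1 and 1) gave 0 and 0 with a replicate block and with the default trend, and 0 to 1 each with a library left out. Those of UPF1 against DHX34 (2 higher) gave 2 to 3. The causes of these changes were not tested, and whether libraries with the same replicate number belong together is not known.

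Of the values of single named genes under the alternatives, 355 kept direction and call, 203 kept direction without the call and 3 turned. For named isoforms these numbers were 124, 103 and 0. A gene that missed the threshold is not shown to be unchanged. Shares of short or rare transcripts rest on few reads.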
